A study of Mus musculus with 3 samples.

Results

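Neurosphere lines NS_R_43289A and NS_R_43289B, replicates 2 and 3 of the study, carry the same animal number and were each hybridised against DNA under the same liver label. They are 2 of the 3 lines on the study's arrays and are called sister lines here, line 2 and line 3. Both were grown from mouse gliomas resistant to inhibition of CSF1R, in neural stem cell medium, for at most 3 passages. What the letters A and B stand for, and the genotype, sex, age and drug of the animal, are not given in the labels. Whether the lines are pieces of 1 tumour, separate tumours or separate cultures is therefore unknown here. The remaining line, line 1 (NS_R_43674), comes from another animal and had a liver sample of its own number. The study set each line, labelled with Cy5, against liver, labelled with Cy3, on a 2-colour Agilent array of 60-base probes, with all 3 arrays on 1 slide and no dye swap. With 1 array a side there is no replicate and no test of any difference between the sisters, so all values below are descriptions.

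Array comparative genomic hybridisation reads the number of DNA copies along the genome as the ratio of tumour to normal signal, averaged over all cells of a sample. Gliomas often hold subclones that differ in the copies of receptor genes, of cell cycle inhibitors such as Cdkn2a and of whole chromosome arms, and cultures from 1 animal can start from different subclones. Neurospheres are floating colonies that favour the stem-like cells of such a tumour.

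Each probe's log2 ratio of Cy5 to Cy3 was centred on its array's autosomal median, and the value of line 3 was subtracted from that of line 2. A positive difference thus means a higher ratio to liver in line 2. A step from 2 to 3 copies in all cells of 1 sister would give 0.58, and a step from 2 to 1 would give -1. Each difference was also split into a Cy5 part, from the DNA of the lines, and a Cy3 part, from the liver DNA, each centred in the same way. The Cy5 part is where a copy number difference between the sisters would show, since the Cy3 part compares liver DNA of the same label. A difference is said to be carried by Cy5 where that part made up at least 2 of every 3 parts of it, and by Cy3 by the same measure.

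The arrays of lines 2 and 3 were the brighter ones of the slide, and that of line 3 was the brighter of the pair. The median scanned signal of line DNA was 549 in line 2 and 708 in line 3, and that of liver DNA 304 and 414. Liver DNA was well above background in 98.5% and 99.1% of probes, and no spot was saturated. After spots with an outlier mark on either array were left out, 161455 autosomal probes, 8722 on X and 122 on Y remained. Autosomal probes lay 10843 base pairs apart in the median, and 67.4% carried a gene name.

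Probe by probe, the sisters lay close together. The difference had an SD of 0.156 over autosomal probes, and 82.7% of probes lay within 0.2 of 0. The SD between repeat spots of 1 probe, over 949 probes spotted up to 5 times, was 0.151 for the same difference, close to the spread over all probes. Line 1 differed from line 2 with an SD of 0.283 and from line 3 with 0.303. Its array was dimmer, with a median of 162 for liver, and these spreads share the arrays of the sisters.

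A difference as large as a step of 1 copy was rare and never ran along neighbouring probes. At 0.58 or more from 0 there were 236 probes higher and 309 probes lower in line 2, or 0.338% of all, and no 2 of the same sign stood beside each other. At the lower limit of 0.3, there were 39 runs of 3 or more neighbouring probes higher in line 2 and 6 runs lower, of at most 4 probes.

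Averaged over 2369 autosomal bins of 1 Mb with at least 20 probes, the sisters differed by small amounts, most of which lay in the Cy5 channel. The SD over bins was 0.058 for the difference, 0.060 for its Cy5 part and 0.022 for its Cy3 part. Over the same bins, line 1 differed from line 2 with an SD of 0.060 and from line 3 with 0.064. At this scale the sisters were thus little closer to each other than to line 1. When the probes of each bin were split into odd and even ones, r was 0.826 between the sets for the difference, 0.778 for the Cy5 part and 0.041 for the Cy3 part. Between a bin and the next, over 2329 pairs, r was 0.627, 0.622 and 0.037. The Cy5 signals of the sisters thus held a pattern along the chromosomes that neighbouring probes shared, while the Cy3 signals of the liver held almost none at this scale. These correlations are over bins of the same arrays, which are no replicates, and the difference contains both parts by its making.

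Of the 2369 bins, 56 were higher in line 2 by at least 0.1 (2.36%) and 133 were lower (5.61%). Cy5 carried 55 of the 56 and 118 of the 133, Cy3 carried 0 of either, and 1 and 15 were mixed. Over all 2369 bins, Cy5 carried 1768 and Cy3 342, and 259 were mixed. The Cy5 part reached 0.1 from 0 in 238 bins, against 1 bin for the Cy3 part. The medians of the sisters lay on opposite sides of liver in the 56 higher and in the 133 lower bins, though single bins did not all do so. In the higher bins the median was 0.052 in line 2 and -0.072 in line 3, with -0.016 in line 1. In the lower bins it was -0.064 in line 2 and 0.057 in line 3, with -0.033 in line 1. Beside another bin of their sign stood 26 of the 56 and 67 of the 133, and the longest run was 7 lower bins on chromosome 16, from 63000001 to 70000000. In the authors' value table, whose values differ from the scanner's ratios in a way the sources do not state, all 56 and all 133 bins kept their sign, with medians of 0.058 and -0.065. There, 8 of the 56 and 21 of the 133 still reached 0.1, and the whole table held 9 higher and 25 lower bins.

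**Figure D1:**
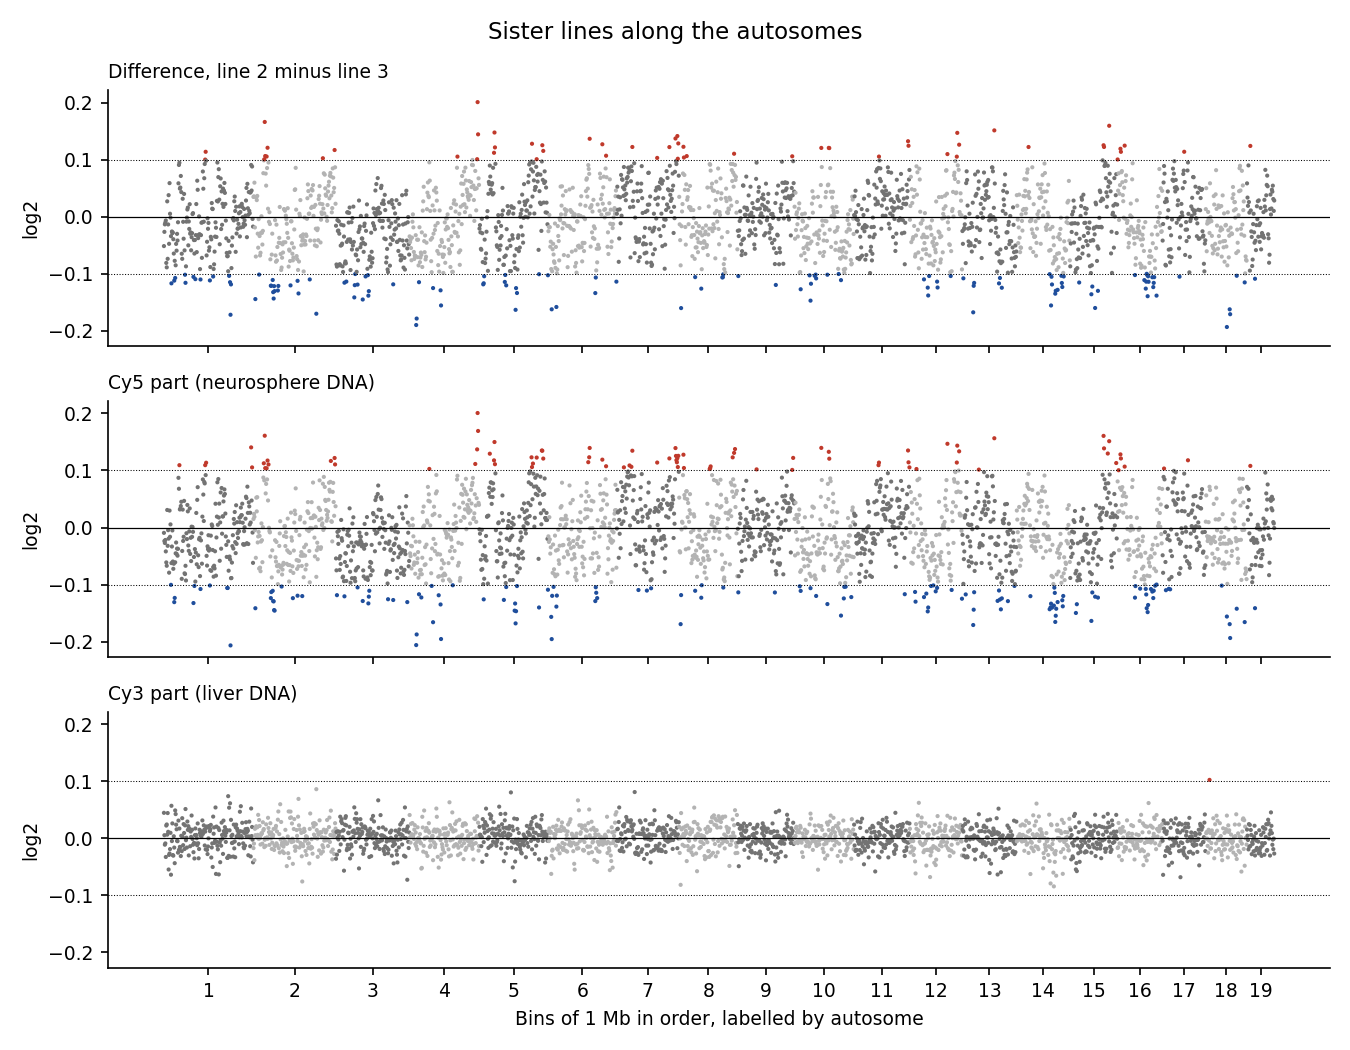
Each point is the mean over the probes of a 1 Mb bin (log2), in genome order with autosomes numbered on the x axis, for the difference of line 2 minus line 3 (top), its Cy5 part (middle) and its Cy3 part (bottom). Red and blue points lie at or past 0.1 and -0.1 (dotted lines); the Cy5 panel repeats the pattern of the difference (SD 0.060 against 0.058) and the Cy3 panel stays near 0 (SD 0.022).

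**Figure D2:**
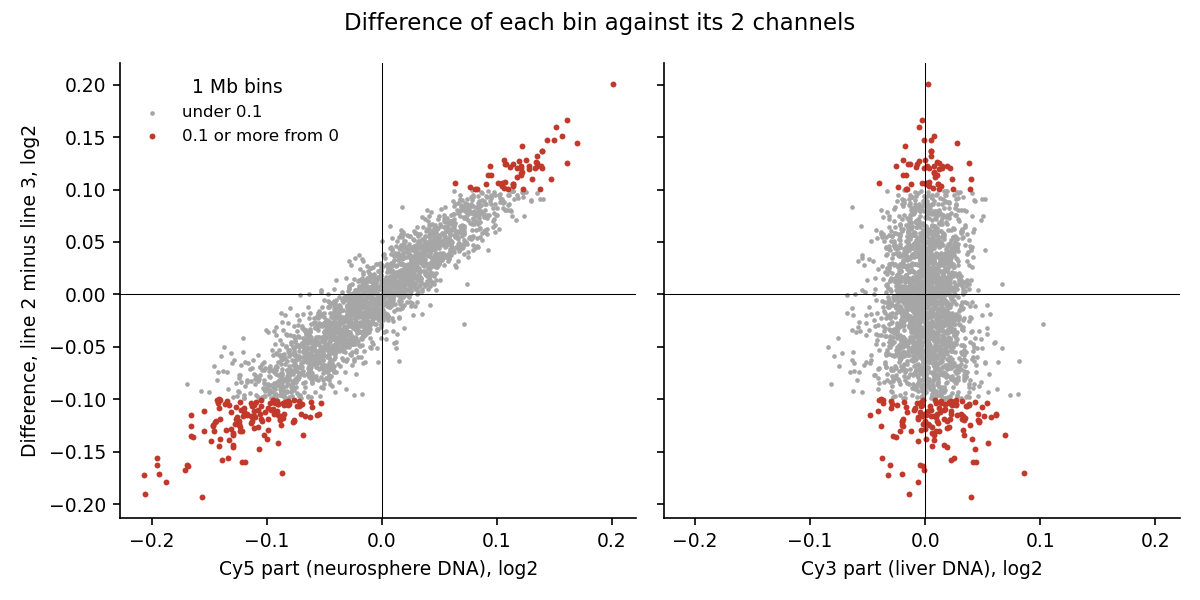
The difference of each 1 Mb bin (y axis, log2) is plotted against its Cy5 part (left) and its Cy3 part (right), with bins at least 0.1 from 0 in red. The difference follows the Cy5 part (r = 0.934 over 2369 bins) and not the Cy3 part (r = -0.058).

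The bin with the highest difference lay on chromosome 4, from 152000001 to 153000000, and averaged 0.20 over 43 probes (SD 0.14 over probes). Against liver, line 2 was at 0.049, line 3 at -0.15 and line 1 at -0.11, so it was line 3, with line 1, that lay below liver and line 2 that did not. Of its probes, 93.0% were higher in line 2. Its best covered gene was Ajap1, which encodes an adherens junction protein. The Cy5 part was 0.20 and the Cy3 part 0.0024.

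The next bin, on chromosome 2 from 27000001 to 28000000, averaged 0.17 over 87 probes, with line 2 at 0.072, line 3 at -0.094 and line 1 at -0.027. It holds Vav2, an activator of small GTPases, Col5a1, a fibrillar collagen chain, Rxra, the retinoid X receptor that partners other nuclear receptors, and Sardh, a mitochondrial dehydrogenase. These 4 genes differed by 0.14, 0.23, 0.24 and 0.18, in that order, so each of them lay higher in line 2. The bin on chromosome 15 from 86000001 to 87000000 averaged 0.16 over 57 probes and holds Tbc1d22a, whose 31 probes averaged 0.19. The bin on chromosome 13 from 73000001 to 74000000 averaged 0.15 over 66 probes and holds the dopamine transporter gene Slc6a3, the potassium-chloride cotransporter gene Slc12a7, Lpcat1 and Nkd2. Slc6a3, Slc12a7 and Nkd2 differed by 0.15, 0.23 and 0.18. Lpcat1 differed by only 0.023 over 4 probes, with 25% of them above 0. The bin on chromosome 5 from 36000001 to 37000000 averaged 0.15 over 99 probes and holds the sortilin-related receptor gene Sorcs2 and the gene of the actin-binding protein Afap1. In all 5 bins line 2 lay above liver, between 0.018 and 0.079, and line 3 below it, between -0.15 and -0.068.

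The 5 lowest bins lay on chromosomes 4, 18 and 1. On chromosome 4, the adjacent bins from 17000001 to 18000000 and from 18000001 to 19000000 averaged -0.19 (45 probes) and -0.18 (54 probes). They hold Mmp16, a membrane-bound matrix metalloproteinase, whose own 26 probes averaged -0.23 (SD 0.15 over probes, 3.85% above 0), with 0.036 in line 2, 0.26 in line 3 and 0.036 in line 1. Line 3 was the highest of the 3 lines here. On chromosome 18, bins from 48000001 to 49000000 and from 55000001 to 56000000 averaged -0.19 (38 probes) and -0.17 (44 probes), the later with Zfp608, a zinc finger gene, at 0.12 in line 2, 0.29 in line 3 and 0.13 in line 1 over the bin. On chromosome 1, the bin from 148000001 to 149000000 averaged -0.17 (61 probes) with Fam5c, now Brinp3, a neural gene whose 40 probes averaged -0.22. All 10 bins were carried by Cy5, with Cy3 parts from -0.032 to 0.040. The authors' value table gave the 5 highest bins 0.13, 0.070, 0.11, 0.092 and 0.062, and the 5 lowest -0.15, -0.13, -0.12, -0.11 and -0.17.

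Higher and lower bins differed in the median, but not in every bin, in how densely probes and named genes covered them. Bins higher in line 2 had a median of 86 probes, bins lower in line 2 a median of 44, and all bins 71. A gene name stood beside a median of 74.0% of the probes of the higher bins and 46.5% of those of the lower ones. In 5 equal groups of bins from few to many probes, the median difference was -0.058, -0.029, -0.0076, 0.011 and 0.029, while the Cy3 part stayed between -0.00055 and 0.0021. Over bins, Spearman's rho of the difference with probes per bin was 0.506, for the Cy5 part 0.492 and for the Cy3 part 0.0020. With the mean GC share of the probes it was 0.462, and with the share of named probes 0.316, and these 3 features move together along the genome.

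The gradient ran the same way in each line against liver and was steepest in line 2. From the sparsest to the densest group, medians went from -0.084 to 0.048 in line 2, from -0.030 to 0.017 in line 3 and from -0.059 to 0.027 in line 1. The sisters thus differed in its slope more than in its direction, and line 1, from the other animal, lay between them. Subtracting a line fitted on probes per bin, named share and GC together lowered the SD over bins from 0.058 to 0.046. It gave 38 higher and 40 lower bins. All 56 higher bins and 132 of the 133 lower bins kept their sign after it, but only 18 and 33 of them still reached 0.1. The 38 and 40 thus include bins that had not reached 0.1 before. Spearman's rho with probes per bin was 0.156 in the authors' value table. Array brightness also differed between the sisters, and the part that brightness, probe density or GC has in these differences was not tested.

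**Figure D3:**
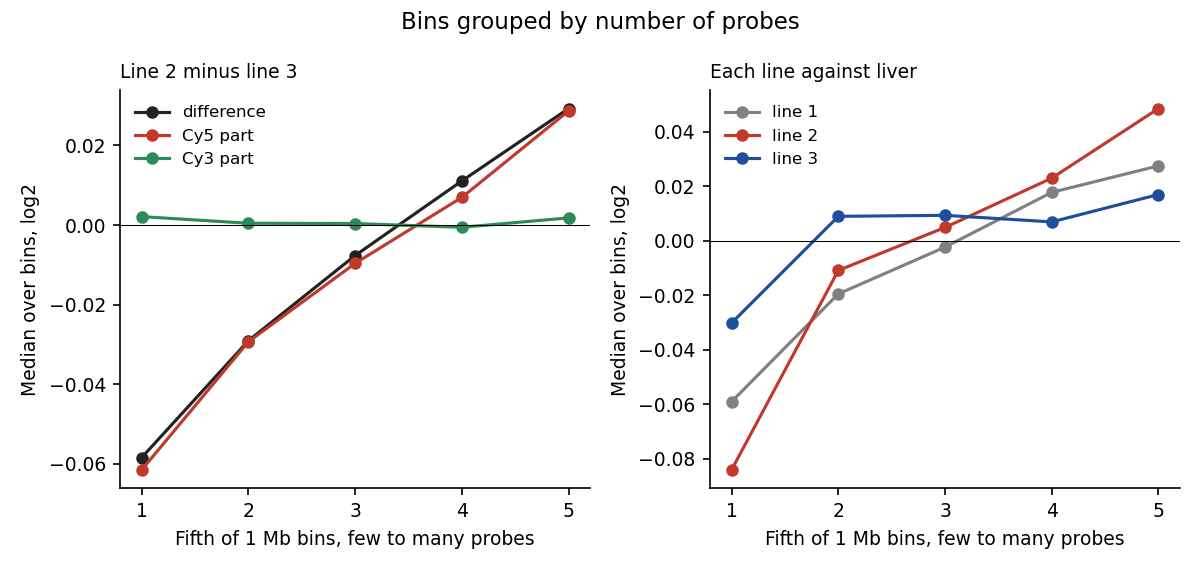
Medians over 1 Mb bins (log2) in 5 equal groups from few to many probes per bin, for the difference and its 2 parts (left) and for each line against liver (right). The difference climbs from -0.058 to 0.029 with its Cy5 part while the Cy3 part stays near 0, and line 2 has the steepest climb of the 3 lines.

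Whole chromosomes differed by a few hundredths. The medians of the difference over the 19 autosomes ran from -0.025 on chromosome 3 to 0.034 on chromosome 7, with an SD of 0.014, and no chromosome was 0.05 or more from 0. Chromosome 7 was at 0.0032 in line 2, -0.033 in line 3 and -0.0018 in line 1, with 59.2% of its 9832 probes higher in line 2. Of its 133 bins, 7 were higher and 0 lower. Chromosome 3 was at -0.018, 0.0063 and -0.0040 in the same order, and held 0 higher and 12 lower bins of 157. Chromosomes 16, 1 and 2 had 14 of 96, 14 of 191 and 16 of 176 bins lower, against 4, 2 and 7 higher ones. Chromosomes 14, 10 and 5 had 11 of 114, 10 of 127 and 11 of 147 lower, against 1, 3 and 7 higher. Over all bins, 5.61% were lower and 2.36% higher. Chromosome 15, the chromosome farthest above liver in both sisters, had medians of 0.053 in line 2 and 0.053 in line 3 and differed by -0.0017. Its median was thus common to them to within 0.01, and line 1 was at -0.0042. Along the chromosome the sisters did differ, by a mean of -0.031 over 3806 probes from 3114799 to 66361684. The 1705 probes from 66375107 to 89302123 averaged 0.069, with 0.12 in line 2 and 0.051 in line 3, and the 1170 probes beyond them 0.0013. Cy3 parts of chromosome medians ran from -0.0037 to 0.0049. Chromosome 7 differed by 0.017 in the authors' value table.

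X differed by -0.034 over 8722 probes, with -0.073 in line 2, -0.040 in line 3 and -0.033 in line 1. Y differed by -0.050 over 122 probes. Both lay beyond the lowest autosome. With the sex of the animal not given, the number of copies from which a loss of X or Y would start is unknown here. The last 10 Mb of a chromosome lay higher in line 2 on 12 of 19 autosomes, with a median of 0.029, against 9 of 19 and -0.0014 for the first 10 Mb. The ends of chromosomes 7, 2 and 4 led with 0.097, 0.074 and 0.073.

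Dividing the difference into segments of at least 10 probes gave 74 segments when each new border cost 10 times log(n), n being the number of autosomal probes, and 0 of them reached 0.2 from 0. They ran from -0.095 to 0.11, and Cy5 carried 70 of them, with Cy3 parts of at most 0.020 from 0. The segments farthest above 0 were distal parts of chromosomes 7 and 11. On chromosome 7, 704 probes from 144531892 to 152520747 averaged 0.11, with 0.068 in line 2, -0.042 in line 3 and 0.010 in line 1, and 80.1% of probes higher in line 2. It holds the potassium channel gene Kcnq1, the synaptic scaffold gene Shank2 and the growth factor gene Igf2, a region known for genes expressed from 1 parental copy. On chromosome 11, 373 probes from 117864923 to 121809961 averaged 0.11, with 0.14, 0.032 and 0.079 in lines 2, 3 and 1. It holds Rbfox3, a neuronal splicing factor, and Rptor, the subunit that defines mTOR complex 1. The same segments averaged 0.057 and 0.029 in the authors' value table. After the line on probes per bin, named share and GC was subtracted, they averaged 0.072 and 0.066. Dividing the difference anew after that line gave 33 segments, with 0 of them at least 0.1 from 0.

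A lower penalty of 5 times log(n) gave 150 segments, of which 20 were at least 0.1 from 0, 12 higher and 8 lower in line 2, and 1 reached 0.2. Cy5 carried all 20, with Cy3 parts of at most 0.026 from 0, and 141 of all 150. The one past 0.2 lay on chromosome 8, where 67 probes from 12767537 to 13399955 averaged 0.21 (SD 0.13 over probes) and 98.5% were higher in line 2. Line 2 was at 0.051, line 3 at -0.16 and line 1 at -0.091. Among its genes are Atp11a, which encodes a phospholipid flippase, Mcf2l, an exchange factor for small GTPases, and Cul4a, a ubiquitin ligase scaffold. Around the highest bin, 121 probes on chromosome 4 from 151676146 to 153667405 averaged 0.19, with 0.052, -0.14 and -0.098 in lines 2, 3 and 1, and hold Chd5, a chromatin remodeller, and Trp73, a relative of p53, beside Ajap1. On chromosome 19, 65 probes from 10301621 to 10942422 averaged 0.18 and hold Syt7, a calcium sensor of membrane fusion, and Dagla, an enzyme of endocannabinoid synthesis.

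Among the 8 lower segments, 120 probes on chromosome 4 from 16930366 to 19279164 averaged -0.18 and hold Mmp16 and Cngb3, a channel subunit of cone photoreceptors. On chromosome 17, 76 probes from 9333965 to 10726871 averaged -0.14, with 0.082 in line 2, 0.22 in line 3 and 0.046 in line 1, and hold Qk, an RNA-binding protein of glia. On chromosome 5, 271 probes from 79533187 to 86173133 averaged -0.12 and hold Lphn3, an adhesion receptor, and Epha5, an ephrin receptor. All 20 segments, in the authors' value table, kept their sign, 7 still reached 0.1 and 16 reached 0.05. The chromosome 8 segment averaged 0.14 there.

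**Figure D4:**
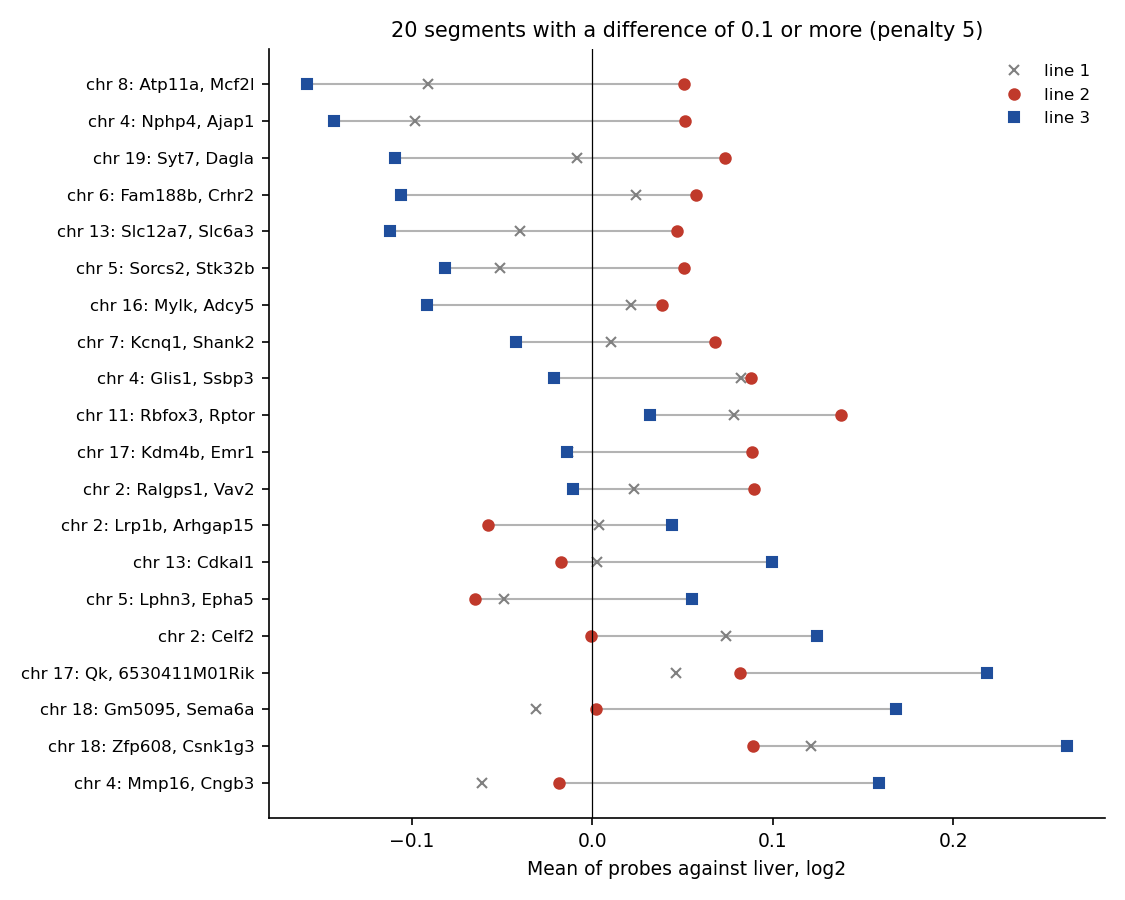
Means against liver (log2) of lines 1 (crosses), 2 (circles) and 3 (squares) in the 20 segments, found with a penalty of 5 times log(n), where the sisters differed by at least 0.1, labelled by chromosome and up to 2 genes. In the upper rows line 3 lies left of line 2, down to -0.16, and in the lower rows right of it, up to 0.26; line 1 lies between the sisters in some rows and outside them in others.

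At the lowest penalty, 2 times log(n) with at least 5 probes, 33 of 479 segments reached 0.2, and the shortest of them divided differently between the dyes. Of the 14 with at least 10 probes, Cy5 carried 13 and 1 was mixed. Of the 19 with fewer, Cy5 carried 10, Cy3 carried 4 and 5 were mixed. Of all 479, Cy5 carried 397. The segment farthest from 0 at this setting covers 5 probes on chromosome 9 from 110021588 to 110056248, 2 of which carry the name of Smarcc1, a subunit of the SWI/SNF chromatin remodelling complex. It averaged -0.59, with -0.033 in line 2, 0.55 in line 3 and 0.26 in line 1. Its probes are printed because 1 of them sets that mean, probe 4, which lies at chr9:110047588-110047647 (mm9) and carries the name of Smarcc1, as does probe 5. Its difference was -1.50, of which the Cy3 part was 1.26, so the liver signals differed there by more than those of the lines, whose Cy5 part was -0.24. The other 4, in order, differed by -0.34, -0.52, -0.23 and -0.35, and the median of the 5 was -0.35. All sequences come from the deposited scanner files and are printed whole, with no part marked.
Chromosome 9 probe 1: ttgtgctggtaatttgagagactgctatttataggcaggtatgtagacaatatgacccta
Chromosome 9 probe 2: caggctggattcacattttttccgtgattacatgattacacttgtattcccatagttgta
Chromosome 9 probe 3: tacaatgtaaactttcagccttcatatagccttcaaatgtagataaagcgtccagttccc
Chromosome 9 probe 4: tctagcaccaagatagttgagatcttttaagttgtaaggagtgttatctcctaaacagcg
Chromosome 9 probe 5: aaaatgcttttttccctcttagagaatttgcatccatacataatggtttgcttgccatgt

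The highest segment that Cy5 carried gives the contrast. It covers 5 probes on chromosome 8, chr8:24233615-24261544 (mm9), 4 of which carry the name of Ank1, an adaptor between membrane proteins and the spectrin skeleton. It averaged 0.37 with an SD of 0.063 over probes, with 0.042 in line 2, -0.33 in line 3 and -0.17 in line 1. The probes differed by 0.40, 0.38, 0.36, 0.27 and 0.45, with Cy5 parts from 0.14 to 0.44. The Cy3 parts ran from -0.22 to 0.035 and averaged -0.084, so liver signal added to the difference here too. The probes are shown because this stretch had the lowest SD over probes of the 33.
Chromosome 8 probe 1: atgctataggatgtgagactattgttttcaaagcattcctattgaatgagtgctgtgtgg
Chromosome 8 probe 2: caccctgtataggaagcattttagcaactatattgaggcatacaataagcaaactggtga
Chromosome 8 probe 3: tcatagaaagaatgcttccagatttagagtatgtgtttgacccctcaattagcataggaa
Chromosome 8 probe 4: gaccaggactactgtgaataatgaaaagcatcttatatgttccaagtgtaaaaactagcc
Chromosome 8 probe 5: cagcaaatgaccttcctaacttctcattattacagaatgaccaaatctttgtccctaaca

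Regions that differed from liver were also called in each line, with the same lowest penalty and a mean at least 0.2 from 0, which gave 8 in line 2, 43 in line 3 and 0 in line 1. Values were scaled by each line's spread between neighbouring probes, 0.38 in line 1 against 0.23 in line 2 and 0.24 in line 3. A shift therefore had to be larger or longer to be called in line 1, and its 0 does not show an absence of regions. Of the calls, 6 were made in both sisters with at least 50% overlap, 4 gains and 2 losses. None of the 6 differed by more than 0.12 between the sisters, on either line's borders. The sisters had 1 sign in each because the match asked for it. Both lines also had to be at least 0.2 from 0, so the choice itself favours similar levels. The larger loss covers 10 probes named for Ctnna2, a catenin of neurons, on chromosome 6 from 77633344 to 77717308. It was at -0.75 in line 2 and -0.75 in line 3 and differed by 0.0063, with -0.34 in line 1. The other loss, 9 probes around Cdkn2a on chromosome 4 from 88830688 to 88946623, was at -0.63 in line 2, -0.54 in line 3 and -0.023 in line 1. It differed by -0.085 (SD 0.10 over probes), with a Cy5 part of -0.11 and a Cy3 part of -0.019, and 11.1% of its probes were above 0. In these 2 losses, chosen because both lines were called, the sisters lay closer to each other than either was to liver. Their levels were short of the -1 of a 1-copy loss in all cells.

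The probes named for Cdkn2a, the gene of the cell cycle inhibitor p16 and of Arf, lie at chr4:88927265-88927324 and chr4:88936288-88936347 (mm9). They are shown since they read the gene itself within the shared loss. The first was at -0.78 in line 2, -0.64 in line 3 and -0.56 in line 1, and the other at -0.72, -0.65 and -0.091. The first probe was low in line 1 as well, and the second was not. Exon and intron positions in this build were not used here.
Cdkn2a probe 1: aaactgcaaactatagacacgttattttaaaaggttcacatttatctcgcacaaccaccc
Cdkn2a probe 2: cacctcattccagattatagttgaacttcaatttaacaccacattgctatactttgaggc

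The 4 shared gains were weaker or shorter. A gain in Nlgn1, a postsynaptic adhesion gene on chromosome 3, stood at 0.52 (line 2), 0.60 (line 3) and 0.026 (line 1) over 8 probes from 25262918 to 25370432. On the borders of line 3, with 12 probes, it was 0.39, 0.50 and -0.010. A gain over Slc1a3, the glial glutamate transporter on chromosome 15, was at 0.39, 0.48 and 0.35 in lines 2, 3 and 1 over 19 probes. The gain beside the Cdkn2a loss, 36 probes with Mtap, was at 0.22, 0.27 and 0.21, and that with Rad51l1 and Actn1 on chromosome 12 at 0.29, 0.32 and 0.24. In the last 3, line 1 was near the sisters, and only in the Nlgn1, Cdkn2a and Ctnna2 regions did it lie more than 0.3 from both.

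**Figure D5:**
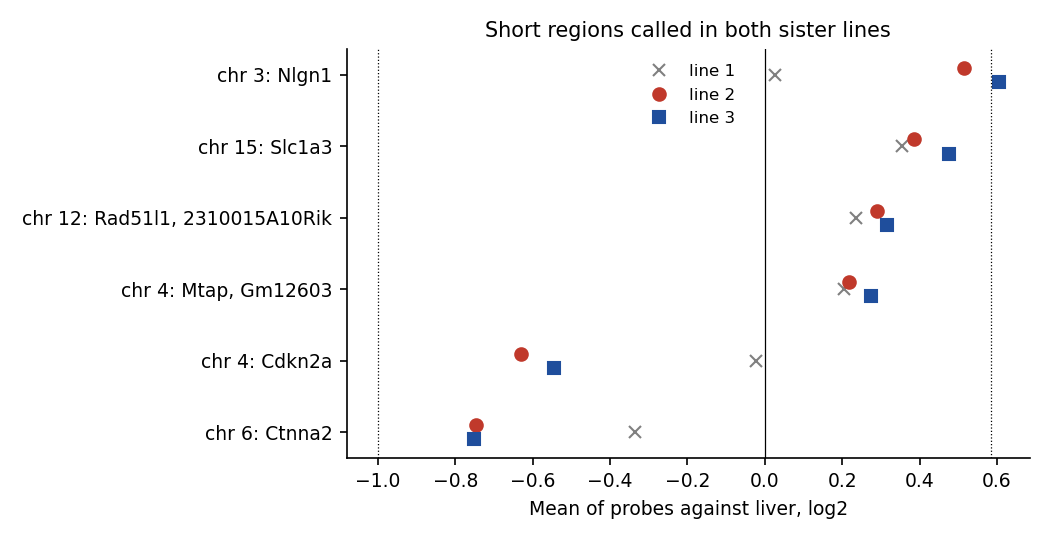
Means against liver (log2) in the 6 short regions called in both sister lines, on the borders of line 2, for lines 1 (crosses), 2 (circles) and 3 (squares); dotted lines mark -1 and 0.58, a step of 1 copy in all cells. The sisters lie within 0.1 of each other in each region, and line 1 stands apart in the Nlgn1, Cdkn2a and Ctnna2 regions.

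The remaining calls were made in 1 sister alone, which does not place the other below the threshold of 0.2. In 4922505G16Rik on chromosome 2, called in line 3 alone, line 2 averaged 0.67 and line 3 0.97. The calls thus depend on the borders drawn in each line as well as on the threshold. Of the 2 made in line 2 alone, both had the same sign in line 3 and differed by -0.059 and 0.087. Of the 37 made in line 3 alone, all 37 had the same sign in line 2, with a median difference of 0.11 in size, and 6 differed by at least 0.2. Cy5 carried 29 of the 37, Cy3 5, and 3 were mixed. These regions were chosen on the level of line 3, so their difference is part of how they were found. Among the 6, Sdk1, an adhesion gene on chromosome 5, had 28 probes at -0.11 in line 2 and -0.33 in line 3, with -0.25 in line 1. Plxna1 and Chchd6 on chromosome 6 had 12 probes at -0.18, -0.46 and -0.45, and Sipa1l3 on chromosome 7 had 13 probes at -0.19, -0.40 and -0.24. In these 3, all probes were higher in line 2 and line 1 was lower than line 2. Around Mmp16, 56 probes were at 0.070 in line 2, 0.27 in line 3 and 0.076 in line 1. The other 2, in 4922505G16Rik and Ptpn12, had 5 and 6 probes with SDs of 0.33 and 0.76, and were at -0.27 and 0.013 in the authors' value table. That table gave 0.16 for Sdk1, 0.19 for Plxna1 and Chchd6, 0.12 for Sipa1l3 and -0.15 around Mmp16, so 5 of the 6 were less than 0.2 from 0 there.

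Over 9058 autosomal genes with at least 3 probes, 24 were higher in line 2 by at least 0.3 (0.265%) and 11 lower (0.121%), and none reached 0.58. Cy5 carried 16 of the 24 and 4 of the 11, against 5449 of all 9058 genes. Of the 35, all but 5 had 3 or 4 probes. The 5 genes past 0.3 with more probes were all higher in line 2, and all their probes were above 0; 4 of them are described. Plxna1, a semaphorin receptor on chromosome 6 from 89267991 to 89309871, differed by 0.36 over 5 probes, with -0.11 in line 2, -0.47 in line 3 and -0.42 in line 1. Kcnt1, a sodium-activated potassium channel gene on chromosome 2 from 25725407 to 25760421, differed by 0.33 over 5 probes, with -0.054, -0.38 and -0.23. Nup210, a nuclear pore gene on chromosome 6 from 90967714 to 91058525, differed by 0.30 over 10 probes, with -0.16, -0.46 and -0.24. In all 3 it was line 3 that was lowest, and Cy5 carried the difference.

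Otog was mixed between the dyes. This inner ear matrix gene on chromosome 7 differed by 0.38 over 7 probes (SD 0.36 over probes) with a Cy5 part of 0.17 and a Cy3 part of -0.21. In the authors' value table these 4 genes differed by 0.17 to 0.23, all below 0.3. Among 545 genes with at least 30 probes, differences ran from -0.22 to 0.20. Fam5c was the lowest of the large genes, with -0.050 in line 2, 0.17 in line 3 and 0.062 in line 1.

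None of the pathway lists held a gene past 0.3. For IGF1R, PI3 kinase, AKT and mTOR, the route by which insulin-like growth factors drive growth and survival, 29 genes were tested and ran from -0.15 to 0.20 with a median of 0.020, the same as the 0.020 over all genes. Igf1r, the receptor, differed by 0.013 over 30 probes on chromosome 7 from 75103700 to 75372577 (SD 0.17 over probes). It was at 0.038 in line 2, 0.026 in line 3 and 0.0051 in line 1, and the authors' value table turned the direction, with -0.031. Its ligand Igf1 differed by -0.086 over 7 probes, and Cy3 carried that difference. Pik3ca, a catalytic subunit of PI3 kinase, differed by 0.13 over 4 probes, with 0.074 in line 2 and -0.059 in line 3, and here too Cy3 carried it. Pik3r1, the regulatory subunit on chromosome 13 from 102459422 to 102536771, was at 0.040 in line 2, 0.15 in line 3 and -0.072 in line 1 over 8 probes. It differed by -0.10, with a Cy5 part of -0.20 and a Cy3 part of -0.090, so the liver signal was also lower on the array of line 2. Tsc2, an inhibitor of mTOR, was the highest of the list at 0.20 over 4 probes, with a Cy5 part of 0.072 and a Cy3 part of -0.12, and Mtor differed by 0.15 over 12.

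Windows that reach 500 kb to either side of a gene average more probes. Over 20296 genes, 4.19% of windows were higher in line 2 by at least 0.1 and 1.12% lower. In the IGF1R list, 3 of 37 windows were higher and 0 lower. They were those of Igf2, a ligand of IGF1R, at 0.12 (84 probes), Rptor at 0.11 and Tsc1, a partner of Tsc2, at 0.11 (91 probes). The windows of Igf2 and Rptor lie in the distal segments of chromosomes 7 and 11 given above. Their levels in lines 2, 3 and 1 were 0.093, -0.032 and 0.011 for Igf2, 0.15, 0.040 and 0.11 for Rptor and 0.086, -0.022 and 0.047 for Tsc1. In the authors' value table they differed by 0.055, 0.020 and 0.046. After the line on probes per bin, named share and GC was subtracted, they differed by 0.080, 0.070 and 0.11.

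Receptor tyrosine kinases, which relay growth signals at the cell surface, had 1 of 28 windows higher and 0 lower. It was that of Ret, a receptor for glial cell line-derived factors, at 0.10 over 86 probes. The 6 probes named Ret differed by 0.27 (SD 0.10 over probes), all above 0, with 0.055 in line 2, -0.22 in line 3 and -0.037 in line 1. The Cy5 part was 0.28 and the Cy3 part 0.014, and the value table gave 0.23. Pdgfra, a receptor of glial progenitors, differed by -0.19 over 6 probes, all below 0, and was mixed between the dyes, with a Cy5 part of -0.12 and a Cy3 part of 0.073. It was at 0.27 in line 2, 0.46 in line 3 and 0.11 in line 1, but differed by -0.028 over its window of 58 probes. Its ligand Pdgfb differed by 0.24 over 3 probes, with -0.095, -0.34 and -0.74 in lines 2, 3 and 1, and by 0.084 over 98; the authors' value table gave 0.085 and 0.0022. For Pdgfra that table gave -0.26, and -0.076 over the window. Egfr and Met differed by 0.046 and 0.0027 over 17 and 12 probes.

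In the list of CSF1R and interleukin 4 genes, which serve macrophages, 2 of 16 windows were higher and 0 lower. Csf2rb, a shared chain of cytokine receptors, had a window at 0.11 over 98 probes, with 0.23 in line 2, 0.12 in line 3 and 0.032 in line 1, and Il4ra, a receptor chain for interleukin 4, one at 0.14 over 99 probes, with 0.049, -0.088 and -0.00048. Csf1r itself, the drug's target, on chromosome 18 from 61270472 to 61285640, had 2 probes at -0.38 in line 2, -0.51 in line 3 and -0.61 in line 1. They differed by 0.13 and were mixed between the dyes, with a Cy5 part of 0.045 and a Cy3 part of -0.082, while the window of 95 probes differed by 0.060. In the authors' value table the gene differed by 0.036 and the window by -0.0051, so the direction of the window turned. The windows of Csf2rb and Il4ra differed by 0.011 and 0.088 there. Glioma drivers and lineage genes had 1 higher window of 20, that of the receptor Notch1 at 0.10, and 1 lower one, that of Lrp1b. RAS and MAPK genes had 0 higher and 2 lower windows of 14, those of the inhibitors Rasa1 at -0.12 over 39 probes and Spry2 at -0.12 over 46. The authors' value table gave 0.026 for the Notch1 window, -0.065 for Rasa1 and -0.11 for Spry2. Cell cycle and p53 genes and DNA repair genes had none of 20 and none of 16. Trp53 and Mdm2 differed by 0.025 and -0.071 over 2 probes each, Cdk6 by 0.019 over 13, Rb1 by -0.0023 over 15 and Nf1 by -0.078 over 24.

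The large genes of common fragile sites are long, sparsely coded and late copied, and are known as frequent places of breakage in cultured cells. Of 28 tested, 6 were above 0 and the median was -0.032, against 0.020 over all genes. Large genes lay lower in general, with a median of -0.015 over the 545 genes with at least 30 probes. Of the windows of the fragile site genes, 0 were higher and 3 lower. These were Csmd3 at -0.12, Lrrc4c at -0.11 and Lrp1b at -0.10, against -0.048, -0.044 and -0.042 in the authors' value table. Lrp1b, with 203 probes, was at -0.12 in line 2, -0.012 in line 3 and -0.081 in line 1, and Csmd3, with 120, at -0.096, 0.025 and -0.081. Nlgn1 as a whole, with 92 probes, differed by -0.11, and Ctnna2, with 113, by -0.044. Wwox and Cdh13, both on chromosome 8, were the highest at 0.096 and 0.085. No member reached 0.13 from 0 over its probes. All 12 windows named for the lists kept their sign in the authors' value table, where 1, that of Spry2, still reached 0.1.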

How the data were processed

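Genomic DNA of 3 lines and their liver references was measured on 2-colour arrays. Per the file headers, the deposited intensities were background-subtracted, detrended and linearly dye-normalised in Agilent Feature Extraction 10.7.3.1, on build mm9. The authors' deposited value table holds log10 ratios of Cy5 to Cy3, with no correction stated. Against the scanner's own log10 ratios it had r = 0.844 (line 2) and 0.884 (line 3). Here, log2 ratios were computed from the processed intensities without loess, control spots and 282 spots with an outlier mark on either sister's array were left out, and each array was centred on its autosomal median. Segments were fitted by penalised least squares in Python 3.11.15 with numba 0.67.0 and numpy 2.4.6, and tested on simulated data. Bins of 1 Mb needed 20 probes and genes 3. limma 3.58.1 (R 4.3.3) gave the alternatives with loess and normexp (offset 50).

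Named genes were a set of receptor, growth factor and tumour genes whatever their value, autosomal genes of at least 5 probes that differed by at least 0.3 with 80% of probes of 1 sign, up to 10 genes of a called segment, up to 4 genes of the 5 highest and lowest bins, and list members past 0.3 or with a window past 0.1. Genes of segments at lower penalties and of regions were named after their values were seen. The members, lists and settings were chosen with earlier results of these data known. Of 21138 gene names on the array, 13683 were current RefSeq symbols and 1547 synonyms. Some genes that met these rules are not reported here. No columns of other samples were present. The number of arrays, 1 a side, limits the precision.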

Additional observations from a re-analysis of the deposited data

How the results depend on the processing

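Over 21 alternative settings, 97 of 128 values stayed within 1.5 times of those reported (percentages within 10 points, chromosome medians within 1 SD over autosomes). Another 31 moved further and 0 reversed, and the cause was not tested. Only rho and the values of chromosomes 3 and 7 could reverse, since the rest are counts, SDs and percentages. Single genes and windows, some of which turned direction above, were not among these values. In the authors' value table, the SD over autosomes was 0.0069, 9 bins were higher and 25 lower, rho with probes per bin was 0.156, 7 genes were higher, chromosome 7 differed by 0.017 and the SD over bins was 0.037. With normexp, 95 bins and 51 genes were higher. Without dim probes, 14 genes were higher and 7 lower. Subtracting a line on the share of named probes gave a rho of 0.264. Subtracting probe density, named share and GC together, an alternative chosen after seeing the data, gave a rho of 0.0046, an SD over autosomes of 0.0096 and 40 lower bins. At a bin threshold of 0.2, 1 bin was higher and 0 lower. Bins of 500 kb gave 187 higher and a rho of 0.314, and bins of 5 Mb gave 6 higher and 6 lower. Segments past 0.2 numbered 1 at a penalty of 5 and 33 at a penalty of 2 with a minimum of 5 probes in place of 10, and 2 passed 0.1. Genes of at least 5 probes gave 5 higher and 0 lower, of at least 10 probes 1 and 0, gene medians 6 lower, and a threshold of 0.58 gave 0 and 0. Against 6 regions called in both sisters, 4 were called in the value table and without dim probes, 5 with normexp and 7 with loess; which regions these were was not compared, and the subtracted settings were not run. The share carried by a dye could not be computed for the value table, loess or the subtracted settings, which hold no separate channels. No paired analysis was possible because each sister has 1 array, and leaving out a replicate leaves no difference to compute.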
